A study of Homo sapiens with 6 samples.

Results

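The cytosolic ribosomal protein genes were examined in LM3 cells, an established human hepatocellular carcinoma (HCC) cell line, after stable knockdown of the zinc finger gene ZNF706. Members were taken by gene name, as rows named RPL or RPS with a number and the usual suffixes together with RPLP0, RPLP1, RPLP2 and RPSA, without pseudogenes and without the RPS6K kinases. This gave 84 of the 33007 genes in the table, 32 of the small (40S) and 52 of the large (60S) subunit, and 83 of them had enough counts to be tested. RNA-seq was performed on 3 control samples and 3 knockdown samples, all labelled LM3, HCC, liver and genotype WT, with the treatment given as control or as ZNF706 knockdown. By the study's methods the knockdown line carried an shRNA in the pLKO lentiviral vector and was selected with puromycin, and the labels do not say which shRNA was used or whether the samples of a group came from separate cultures. The p-values therefore measure the spread between these samples, which may be technical.

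A ribosome is built from ribosomal RNA and one copy of nearly every ribosomal protein, so the genes for these proteins are usually expressed at a high level and move together. Their messages typically begin with a C followed by an unbroken run of pyrimidines, the 5′ terminal oligopyrimidine (TOP) motif, through which mTOR signalling and the binding protein LARP1 control their translation and stability. MYC, which the study places upstream of ZNF706, is known to promote ribosome production. Proteins of the large subunit that are made in excess, above all RPL5 and RPL11 with the 5S rRNA, can bind the ubiquitin ligase MDM2.

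The start sites of the members are shown first because the run of pyrimidines is the feature they share at sequence level. Promoter sequences from RefSeq on GRCh38.p14 were available for 68 of the 84 members. Of these, 47 (69.1%) had at least 1 annotated start that was a C opening a run of at least 5 C or T bases, against 1404 of all 27305 genes with a promoter (5.14%) and 815 of the 11363 tested genes with one (7.17%). The run had a median length of 8 bases and reached 19. Allowing the run to begin anywhere within 10 bases of the start raised the share to 59 of 68 members (86.8%), against 38.4% of all genes. The sequences below are 30 bases long with 15 bases on either side of the start, are written 5′ to 3′ along the strand of the gene, and belong to members that were called or that head the order of levels, with RPL36A and its second copy RPL36AL set side by side. Capitals mark the run that begins at the start site, and a sequence without capitals has no such run there.
RPL13A: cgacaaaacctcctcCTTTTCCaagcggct
RPL21: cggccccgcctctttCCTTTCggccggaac
RPS24: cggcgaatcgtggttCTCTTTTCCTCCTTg
RPS6: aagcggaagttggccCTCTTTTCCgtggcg
RPL4: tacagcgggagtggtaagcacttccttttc
RPS26: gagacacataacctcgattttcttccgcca
RPS12: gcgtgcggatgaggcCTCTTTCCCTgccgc
RPS3A: cgactcccacttccgCCCTTTTggctctct
RPL41: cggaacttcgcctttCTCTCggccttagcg
RPL36A: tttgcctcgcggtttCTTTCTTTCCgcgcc
RPL36AL: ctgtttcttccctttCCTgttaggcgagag
The windows lie at chr19:49487593-49487622 on the plus strand for RPL13A, at chr13:27251543-27251572 (plus) for RPL21, at chr10:78033848-78033877 (plus) for RPS24, at chr9:19380222-19380251 (minus) for RPS6, at chr15:66504841-66504870 (minus) for RPL4 and at chr12:56041903-56041932 (plus) for RPS26. Those of RPS12, RPS3A, RPL41, RPL36A and RPL36AL lie at chr6:132814554-132814583 (plus), chr4:151099613-151099642 (plus), chr12:56116618-56116647 (plus), chrX:101390996-101391025 (plus) and chr14:49620612-49620641 (minus). Each window spans the first bases of the annotated 5′ untranslated exon and the bases just before it.

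Other short motifs were searched on both strands from 250 bases before to 50 bases after the start. The letters CCGGAAG, which hold the core bound by ETS factors such as GABPA, were present in 24 of 68 members (35.3%), against 12.2% of all genes and 21.0% of tested genes with a promoter. AAGATGGC, letters of the kind bound by YY1, occurred in 7 members (10.3%), against 3.52% of all genes and 6.03% of tested genes. These matches are descriptions of letters and do not show a bound site. Members without a promoter entry included RPL8, RPL7, RPS15A, RPS20, RPL5, RPS2, RPL3L, RPL37, RPL23A, RPL23 and RPL39L.

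Control samples held 62684076, 64713764 and 63054445 counts and knockdown samples held 68548419, 65861994 and 69057423, so the latter were all sequenced more deeply. ZNF706 had 3211, 3504 and 3357 counts in control cells and 2350, 2068 and 2298 in knockdown cells, and its groups did not overlap (log2 fold change -0.73, standard error 0.050, adjusted p = 3.7e-05 by the quasi-likelihood test of edgeR). The labelled cell type was checked against marker genes. KRT8 and KRT18, the keratins of simple epithelia, had FPKM values (the deposited unit, scaled to length and depth) of 190.3 to 207 and 258 to 283. The other 3 genes of the epithelial list were nearly absent, with KRT19 at 0.28 to 0.95 FPKM, EPCAM at 0.03 to 0.40 and CDH1 at 0.24 to 0.52. Of the 5 genes edgeR called 0, with KRT19 and CDH1 (higher) and KRT18 (lower) at an unadjusted p below 0.05, and DESeq2 called KRT19 higher and KRT18 lower (log2 fold changes 0.84 and -0.10, adjusted p = 0.0399 and 0.0224). Hepatocyte markers were low, with ALB between 0.50 and 3.57 FPKM and APOB at most 0.28, so the cells carried little of a mature hepatocyte's expression. The 8 tested genes of this list summed to 3.65, 7.88 and 9.28 FPKM in control cells and 3.71, 3.98 and 2.75 in knockdown cells. ALB was the most abundant over the 6 samples together. APOA1 was above ALB in control replicate 1 (1.56 against 0.77 FPKM) and knockdown replicate 3 (1.59 against 0.50). In knockdown replicates 1 and 2 APOA1 had 0 and 0.05 FPKM. All 8 had a negative log2 fold change, and SERPINA1 and APOB were lower in knockdown cells (-1.47 and -0.98, adjusted p = 0.00336 and 0.0205 from edgeR), the call of APOB being lost in 5 alternative settings. Of 8 fibroblast, endothelial and blood cell markers, VWF, PTPRC and HBB were at 0 or nearly so. The 5 that were tested summed to 19.6, 18.6 and 19.5 FPKM in control cells and 26.9, 28.6 and 26.7 in knockdown cells, with CD68 the most abundant, and COL1A1, CD68 and PDGFRB were higher in knockdown cells (log2 fold changes 0.20, 0.64 and 0.68, adjusted p = 0.00231, 0.000106 and 0.00297 from edgeR). COL3A1 had 336, 0 and 48 counts in control cells and 42, 61 and 0 in knockdown cells (log2 fold change -2.04), and PECAM1 had a log2 fold change of 0.15, and neither was called. Whether the shifts of any of these lists have any part in the ribosomal protein values was not tested.

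Knockdown of ZNF706 was accompanied by small changes in a minority of ribosomal protein genes. Of the 83 tested members, 8 were lower and 1 was higher in knockdown cells once p-values from edgeR were adjusted over all genes (threshold 0.05), 10.8% in all, against 22.8% of the 18390 tested genes (10.4% higher and 12.4% lower). The genes that fell were RPL13A, RPL21, RPL15, RPS24, RPS6, RPL4, RPL7 and RPL6, and the gene that rose was RPS26. The median log2 fold change of the members was -0.07, with the middle part of the members between -0.12 and -0.01, against 0.01 over all tested genes. The sign was negative in 65 members and positive in 18. The balance of calls depended on the scaling, since library size alone gave 1 lower and 5 higher members (against 8.25% and 14.9% of all tested genes), with a median log2 fold change of -0.01 where the median of all tested genes was 0.06. None of the 83 reached the size the study used as its threshold for a changed gene, a log2 fold change of 0.3 or more in either direction with an unadjusted p below 0.05, which 15.5% of all tested genes reached (9.61% higher and 5.88% lower). Apart from RPL3L, which had about 10 counts a sample, the largest absolute log2 fold change among the members was 0.22, in RPL36A.

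**Figure D1:**
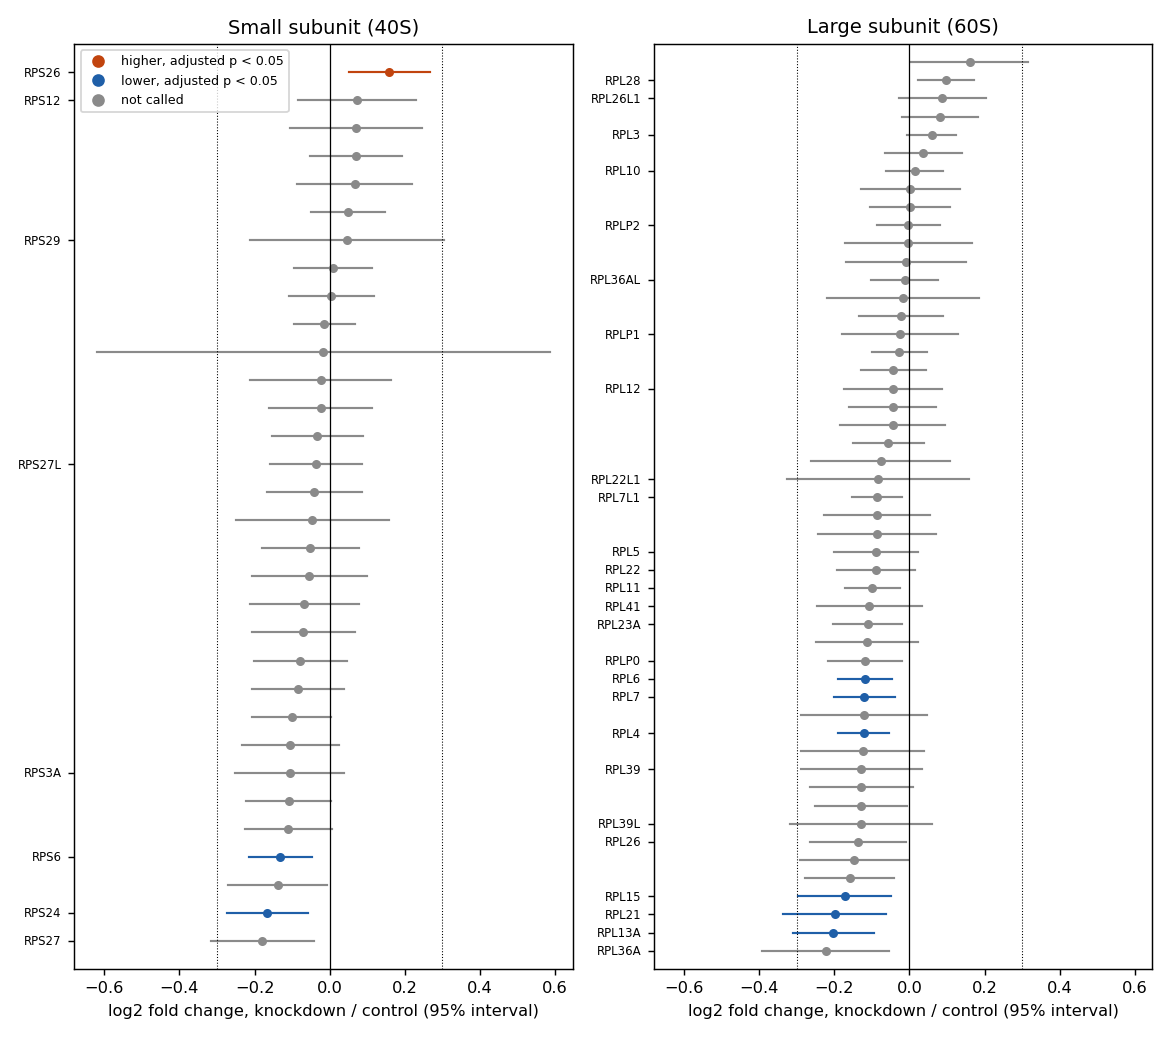
Log2 fold change (x axis, knockdown over control) of 82 ribosomal protein genes with its 95% interval, the small subunit on the left and the large subunit on the right, ordered by value. Dotted lines mark 0.3 in either direction, and names are given for called genes, genes whose groups did not overlap and the further members chosen by the rule for named genes. RPL3L (about 10 counts a sample) is left out. 8 genes are coloured as lower and 1, RPS26, as higher, and most points lie between 0 and -0.2.

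The intervals show how large a change these data leave room for. In 73 of 83 members (88.0%) the whole 95% interval of the log2 fold change lay within 0.3 of 0, against 5653 of all 18390 tested genes (30.7%). The members are among the most abundant messages, and their median standard error was 0.055 against 0.109 over all tested genes. The interval of the other 10 reached past 0.3, on the lower side for RPL36A, RPL13A, RPL21, RPS27, RPL39L and RPL22L1, on the upper side for RPL36 and RPS29, and on both sides for RPS10 and RPL3L. The control and knockdown values did not overlap in 12 members, 2 with knockdown above and 10 with knockdown below, while 71 overlapped. Over all tested genes 39.4% did not overlap, 19.7% in each direction.

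The number of called members turned on single samples. Without control replicate 1 it stayed close to the full fit, with 10 lower and 0 higher, against 17.6% of all tested genes. Without knockdown replicate 3, 22 members were called lower and 0 higher by edgeR, where 9.98% of all tested genes were lower and 7.52% higher. Without knockdown replicate 1 the members called were 1 lower and 3 higher, against 10.2% and 7.79% of all tested genes, so the balance of adjusted calls turned over. At an unadjusted p below 0.05 the same fit gave 11 lower and 8 higher members. The share of all tested genes under that rule was not computed for this fit, so these counts have no background. The median log2 fold change of the members stayed negative (-0.0138). Leaving out control replicate 2 or knockdown replicate 2 left 0 members called in either direction by edgeR, where 16.4% and 13.9% of all tested genes were called. At an unadjusted p below 0.05 these settings gave 11 and 13 lower and 1 and 2 higher members, against 30.4% and 28.6% of all tested genes. Leaving out control replicate 3 left 1 lower and 0 higher, against 16.2% of all tested genes. With all 6 samples, 22 members had an unadjusted p below 0.05 (19 lower and 3 higher), where 34.6% of all tested genes did, and DESeq2 called 16 lower and 3 higher members and 29.8% of all genes it tested.

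The 8 genes called lower changed by -13.1 to -7.87%. RPL13A, a protein of the large subunit that in myeloid cells can also leave the ribosome to repress inflammatory messages, had 833, 863 and 877 CPM (counts scaled to library size by the TMM method) in control cells and 691, 746.5 and 799 in knockdown cells. Every knockdown sample lay below every control sample, and the change was -13.1% (95% interval -19.4 to -6.36%, log2 fold change -0.20, standard error 0.048, adjusted p = 0.0142 from edgeR). It had the smallest adjusted p of the members and passed the test in 14 of 19 alternative settings, while the other 7 passed in 7 (RPS24) to 11 (RPL21) of them.

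RPL4, whose loop lines the tunnel through which the new peptide leaves the ribosome, had 2167, 2255 and 2196 CPM in control cells and 1968, 2007 and 2106 in knockdown cells. The groups did not overlap (log2 fold change -0.12, standard error 0.031, adjusted p = 0.0184 from edgeR). RPL6, another protein of the large subunit, had 1713, 1780.1 and 1777 CPM in control cells and 1564, 1609 and 1682 in knockdown cells, again without overlap (log2 fold change -0.12, adjusted p = 0.0254 from edgeR). RPL7 had 1032, 1076 and 1095 CPM against 944, 979.5 and 1024, also without overlap (log2 fold change -0.12, adjusted p = 0.0399 from edgeR). RPL7 shares its sequence with 31 pseudogene rows that held 19.7% of their joint reads, so its count is uncertain.

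RPS6, the small-subunit protein that S6 kinase phosphorylates downstream of mTOR, had 1088, 1168 and 1131 CPM in control cells and 987, 1035 and 1069 in knockdown cells. All knockdown samples were lower (log2 fold change -0.13, standard error 0.038, adjusted p = 0.0308 from edgeR). RPS24, one of the genes mutated in Diamond-Blackfan anaemia, had 1167, 1169 and 1140.2 CPM in control cells and 956, 1026 and 1115 in knockdown cells. Here the control samples were close together and the knockdown samples were spread out below them (log2 fold change -0.17, standard error 0.048, adjusted p = 0.0338 from edgeR).

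RPL21 and RPL15 passed the test although their groups overlapped. RPL21 had 358, 388 and 390.1 CPM in control cells and 319, 307 and 363 in knockdown cells, so knockdown replicate 3 lay above control replicate 1 (log2 fold change -0.20, standard error 0.061, adjusted p = 0.0405 from edgeR). Its 26 pseudogene rows held 21.5% of the reads it shares with them, and its call was lost when pseudogene rows were added to their parents, a setting in which 6 members were lower and 1 higher, against 23% of all tested genes called. RPL15, which is mutated in some families with Diamond-Blackfan anaemia, had 707, 762 and 773 CPM in control cells and 609, 671 and 710.1 in knockdown cells, with the same 2 replicates overlapping and its call also lost in that setting (log2 fold change -0.17, standard error 0.055, adjusted p = 0.0486 from edgeR).

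RPS26 was the one member called higher by edgeR with TMM scaling and all 6 samples, and other settings called other members higher too. It sits at the site where the message leaves the small subunit and touches the bases before the start codon. Its values were 209, 209.7 and 212 CPM in control cells and 217, 238 and 249 in knockdown cells. The controls were nearly equal, each knockdown sample was higher, and the rise was 11.7% (95% interval 3.67 to 20.3%, log2 fold change 0.16, standard error 0.048, adjusted p = 0.0388 from edgeR). The call was lost in 8 of 19 alternative settings, among them the omission of each single sample other than knockdown replicate 1. RPL36 had a log2 fold change of the same size (0.16), but its samples overlapped and it did not pass in edgeR (adjusted p = 0.131). RPL28, with 233, 228 and 235 CPM in control cells and 242, 249 and 255 in knockdown cells, did not overlap and did not pass either (log2 fold change 0.10, adjusted p = 0.0647 from edgeR). DESeq2 called both higher (adjusted p = 0.0213 for RPL36 and 0.0186 for RPL28), and they passed in 4 and 7 of 19 alternative settings.

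**Figure D2:**
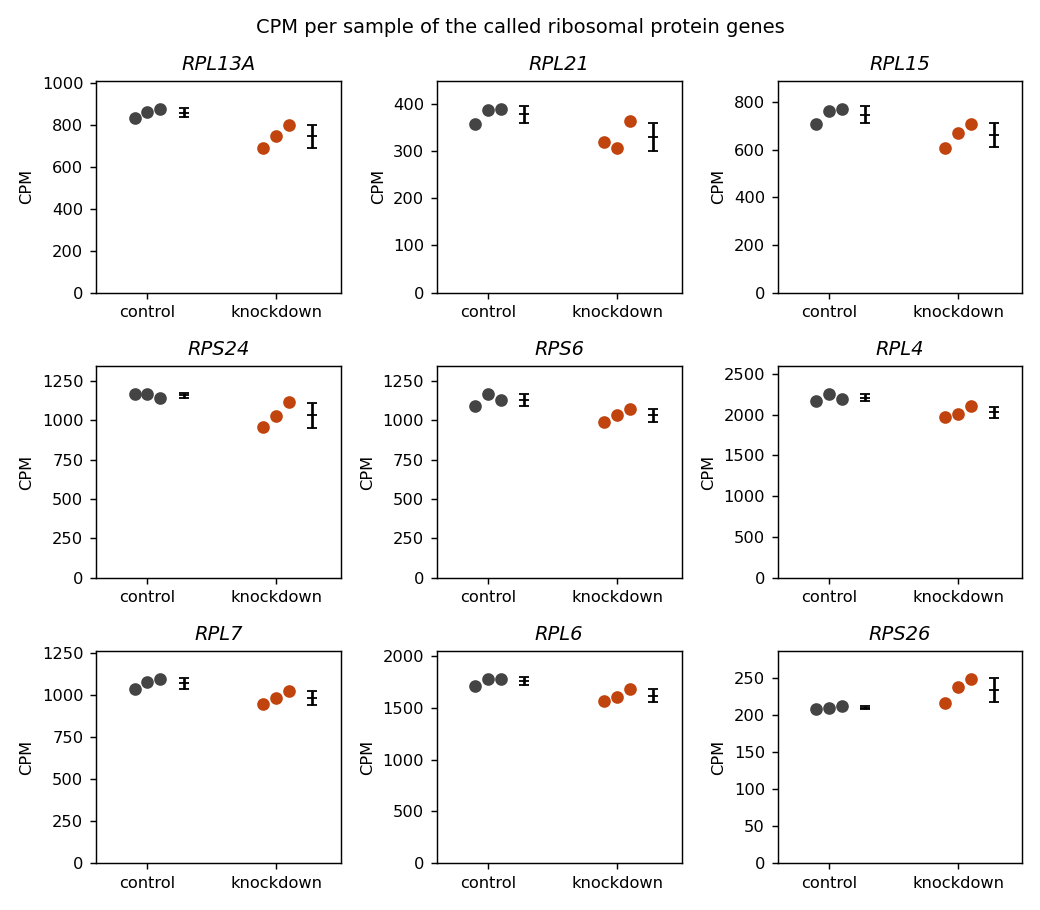
CPM (y axis, from 0) of the 9 called ribosomal protein genes in each control (grey) and knockdown (orange) sample, with the mean and SD of 3 samples as black bars. RPS26 is the only one of the 9 with the knockdown samples above, and in RPL21 and RPL15 the groups overlap.

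The start sequences did not divide the genes that moved from those that did not. RPL13A, RPL21, RPS24 and RPS6 carry the pyrimidine run at the start, while RPL4, RPL15, RPL6 and RPS26 have no such run at their annotated starts. Beginning within 10 bases of a start, RPL4, RPL15 and RPS26 do have one, of 12, 13 and 5 bases, and RPL6 does not. The split below therefore rests on the exact annotated base. The 47 tested members with the run at the start itself showed 4 lower and 0 higher genes and a median of -0.07 on the log2 scale. The 20 tested members without it there had a median of -0.03, with 3 lower and 1 higher by edgeR. Over all tested genes 12.4% were lower and 10.4% higher. The longest run among the sequences printed above belongs to RPS24. RPS12, whose run is 10 bases long, had a log2 fold change of 0.07 and was not called (adjusted p = 0.527 from edgeR).

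By subunit, 2 of 32 tested genes of the 40S subunit were lower and 1 was higher (median log2 fold change -0.04), and 6 of 51 of the 60S subunit were lower and 0 higher (median -0.09). The difference between the subunits was not tested. Of the 14 genes for proteins of the head of the small subunit, edgeR and DESeq2 called 0 in either direction, and 1 had an unadjusted p below 0.05 in edgeR. Of the 9 genes for proteins around the exit tunnel, edgeR called RPL4 lower, DESeq2 called RPL4, RPL23A and RPL26 lower, and all 9 had a negative sign, as had 65 of the 83 members, with a median of -0.11. Leaving out single samples gave 0 genes lower by edgeR in this group without control replicate 2, knockdown replicate 1 or knockdown replicate 2 (2, 1 and 2 at an unadjusted p below 0.05) and 4 without knockdown replicate 3. With all 6 samples edgeR called 22.8% of all tested genes (34.6% at an unadjusted p below 0.05) and DESeq2 29.8%. Without control replicate 2, knockdown replicate 1, knockdown replicate 2 or knockdown replicate 3, edgeR called 9.08, 10.2, 7.85 and 9.98% of all tested genes lower. At an unadjusted p below 0.05, 30.4% passed without control replicate 2 and 28.6% without knockdown replicate 2, in both directions together. This share was not computed without knockdown replicate 1.

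RPL5 and RPL11, which form a complex with the 5S rRNA, had log2 fold changes of -0.09 and -0.10. RPL11 had 676, 702 and 676 CPM in control cells and 625, 631 and 661 in knockdown cells, with no overlap, and fell short of the threshold in edgeR (adjusted p = 0.0546), while DESeq2 called it lower (adjusted p = 0.0148). RPL5 overlapped between the groups and passed with neither tool (adjusted p = 0.247 from edgeR and 0.14 from DESeq2). MDM2, the ubiquitin ligase that this complex can bind, was lower, with 134, 135 and 138 CPM in control cells against 121, 116 and 120.1 in knockdown cells and no overlap (log2 fold change -0.19, adjusted p = 0.00388 from edgeR). Its call was lost in 4 of 19 alternative settings, those with a length or GC trend removed. CDKN1A, an inhibitor of the cell cycle, had a log2 fold change of -0.09, and MDM4 and the assembly factor RPF2 had 0.07 and -0.11, none of which passed.

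The stalk, which recruits the translation factors, is made of RPLP0, RPLP1 and RPLP2 on a base that includes RPL12. RPLP0 had 2045, 2202 and 2145 CPM in control cells and 1842, 1967 and 2082 in knockdown cells, with overlap (log2 fold change -0.12, adjusted p = 0.0851 from edgeR). RPLP1, RPLP2 and RPL12 had log2 fold changes of -0.03, -0.00 and -0.04, and each of these changed sign under library-size scaling and when knockdown replicate 1 was left out. Of the 4 stalk genes edgeR called 0, with 1 at an unadjusted p below 0.05, and DESeq2 called 1 lower, where these rules took 22.8%, 34.6% and 29.8% of all tested genes. FAU, which encodes a ribosomal protein fused to a ubiquitin-like protein and lies outside the naming rule, had a log2 fold change of 0.16 and did not pass in edgeR (adjusted p = 0.102), while DESeq2 called it higher (adjusted p = 0.016).

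Between samples the members were high or low together, and this spread was larger than the difference between the groups. On the log2 CPM scale, the median deviation of the members from their own mean over the 6 samples was -0.04, 0.05 and 0.08 in control cells and -0.13, -0.03 and 0.07 in knockdown cells. Knockdown replicate 1 was the lowest sample for 59 of 83 members, against 16.2% of all tested genes, and control replicate 1 was the lowest for 19. Control replicate 3 and knockdown replicate 3 were the highest for 37 and 31 members. The spread of this median within groups was 0.086 (SD, log2), and the median log2 fold change between them was -0.07.

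The summed share of all counts that fell on the members was 4.71, 4.99 and 5.01% in control cells and 4.56, 4.85 and 5.15% in knockdown cells. The lowest and the highest sample were both knockdown samples. The means were 4.90% ± 0.171 and 4.85% ± 0.295 (SD, n = 3), and an exact two-sided permutation test gave p = 0.8, where 3 against 3 samples cannot give less than 0.1. The small subunit held 1.73, 1.85 and 1.86% of counts in control cells and 1.69, 1.80 and 1.94% in knockdown cells. In bulk RNA, less RNA per cell and a smaller part of cells with the RNA cannot be told apart. By contrast, the share on mitochondrially encoded genes was 5.40, 5.19 and 5.40% in control cells and 5.03, 5.02 and 4.79% in knockdown cells, with no overlap (exact permutation p = 0.1, the smallest possible), and its part in the scaling of the members was not tested.

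**Figure D3:**
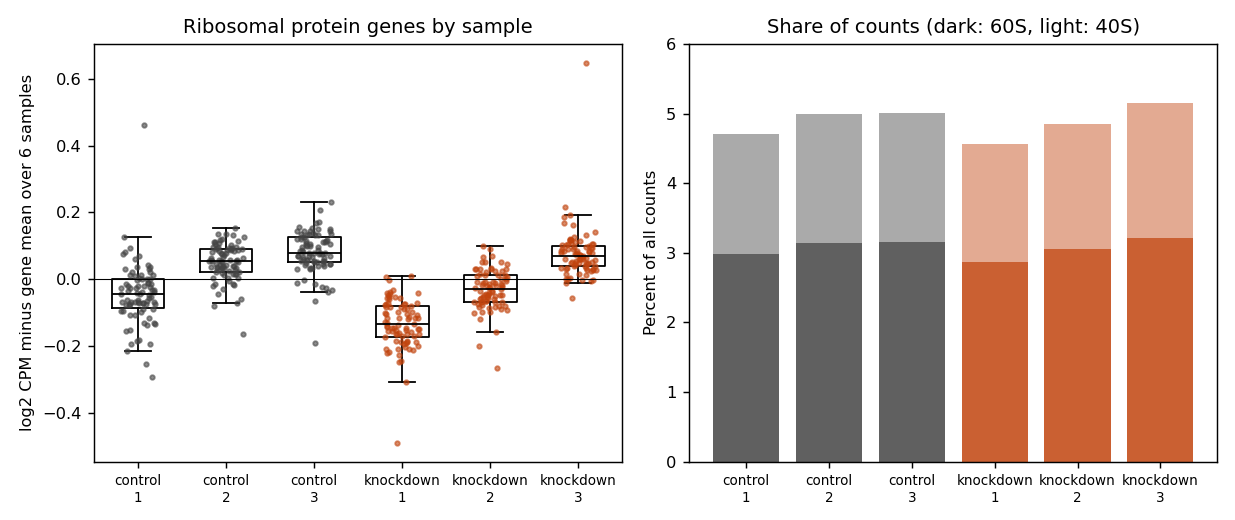
Left, log2 CPM of each of 82 ribosomal protein genes minus its mean over 6 samples (y axis), with points for genes and boxes for quartiles, by sample. Right, percent of all counts on the members, the large subunit dark and the small subunit light. Knockdown replicate 1 sits lowest and knockdown replicate 3 about as high as control replicates 2 and 3.

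RPS10 stood out by its spread. It had 21657, 14410 and 13650 counts in control cells and 12688, 14166 and 27822 in knockdown cells, so 1 sample in each group was far above the others. The read-through gene RPS10-NUDT3, which contains the exons of RPS10, had 1944, 13905 and 15118 counts in control cells and 14874, 15736 and 5226 in knockdown cells. It was lowest in exactly the samples in which RPS10 was highest. The sums of both rows were 23601, 28315 and 28768 in control cells and 27562, 29902 and 33048 in knockdown cells, which is a far smaller spread. The value of RPS10 alone (log2 fold change -0.02, standard error 0.27) is therefore uncertain, since reads of the shared exons can be given to either row.

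The second gene copies and like-named relatives other than RPL36AL were far less abundant than most members by FPKM. Of these genes edgeR called 0 of the 7 that were tested (RPL36AL included), with 1 at an unadjusted p below 0.05, while DESeq2 called 1 lower, where these rules took 22.8%, 34.6% and 29.8% of all tested genes. RPL7L1, a nucleolar relative of RPL7, had 290.3, 294 and 291 CPM in control cells and 276, 276 and 273 in knockdown cells, without overlap (log2 fold change -0.09, adjusted p = 0.0608 from edgeR). RPL26L1 had a log2 fold change of 0.09, RPL22L1 of -0.08 and RPL39L, known from male germ cells, of -0.13, each with overlap. RPS27L, a relative of RPS27, had 59.1, 60.8 and 61.5 CPM in control cells and 56.1, 56.6 and 64.2 in knockdown cells (log2 fold change -0.04, adjusted p = 0.689 from edgeR). RPL36AL had a log2 fold change of -0.01, beside -0.22 for its parent RPL36A (adjusted p = 0.0609 from edgeR). RPL36A had 297, 302 and 285 CPM in control cells and 219.8, 254 and 284 in knockdown cells, with knockdown replicate 3 just below the lowest control. The muscle copy RPL3L had a log2 fold change of -0.76 with a standard error of 0.80 and nothing can be read from it. RPL10L, a copy used in the testis, had 0 counts in 5 samples and 3 in knockdown replicate 2 and was not tested.

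The parents of these copies were RPL3, RPL7, RPL10, RPL22, RPL26, RPL36A, RPL39 and RPS27. Of these edgeR called RPL7 alone, while DESeq2 also called RPL26 and RPS27 lower (adjusted p = 0.0259 and 0.00673). Over all the genes each tool tested, edgeR called 22.8% and DESeq2 29.8%. RPL3, which helps to form the peptidyl transferase centre, had a log2 fold change of 0.06, and RPL10, which completes the large subunit late in its assembly, had 0.01. RPL22, RPL26 and RPL39 had log2 fold changes of -0.09, -0.14 and -0.13. RPS27 had 272, 284 and 296 CPM in control cells and 228, 251 and 274 in knockdown cells, with overlap (log2 fold change -0.18, adjusted p = 0.0627 from edgeR).

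Although the proteins are needed in nearly equal numbers, the deposited levels of their messages spread widely. Without the 8 copies and relatives, the mean FPKM of the members ran from 7.66 to 718 with a median of 153, a 93.7-fold range and a coefficient of variation of 76.0%. The highest were RPS12 (718 FPKM), RPS3A (712 FPKM) and RPL41 (565 FPKM), and the lowest of the tested members were RPL3L (0.048 FPKM), RPS27L (5.93 FPKM) and RPS29 (7.66 FPKM). The order depends on the length by which counts are divided. The FPKM values imply lengths near the union of all annotated exons, for RPS29 about 11220 bases, where its principal transcript in GENCODE release 29 has 296. Counts scaled to library size and to each kilobase of the principal transcript ran from 68.8 to 1980 over the same 76 members, a 28.8-fold range with a coefficient of variation of 52.6%, and RPS29 then stood at 290.3. RPS24 moved from rank 48 by FPKM to rank 3. The order of RPL36A and RPL36AL turned over, from 60.4 and 127 FPKM to 637 and 131 on the principal transcript scale. Principal transcripts may also differ from the ones these cells use, so both scales are descriptions.

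**Figure D4:**
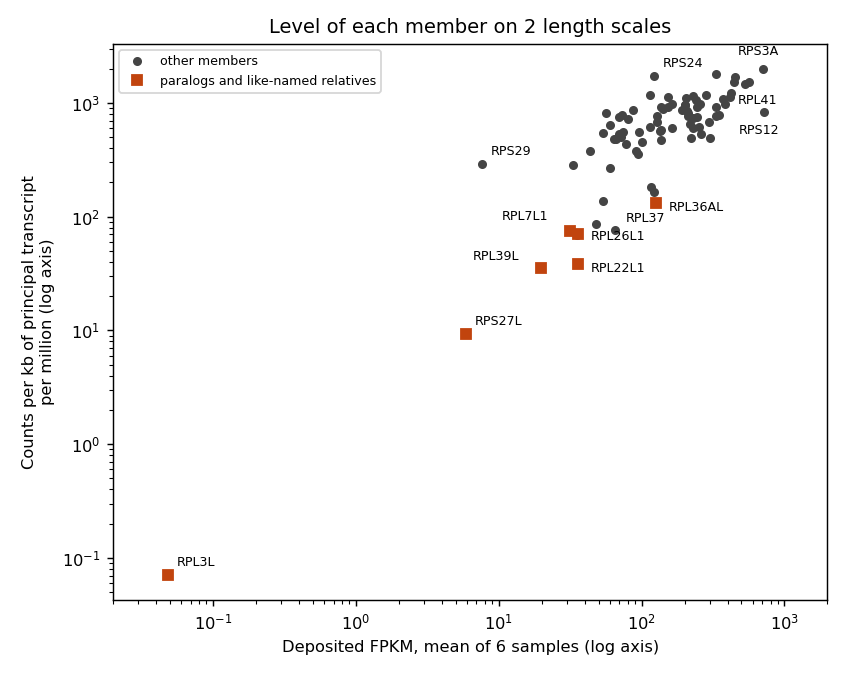
Mean level of the members over 6 samples as deposited FPKM (x axis) and as library-scaled counts per kilobase of the principal transcript (y axis), both on log axes. RPL10L (0.0083 FPKM) is left out. Orange squares are second copies and relatives. RPS29 and RPS24 lie far above the trend, and the relatives other than RPL36AL lie at the low end.

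The genes that build and control ribosomes were set beside the members, as lists chosen with earlier results of these data known. Of 40 genes of ribosome biogenesis, edgeR called 1 higher and 19 lower, beside 10.4% higher and 12.4% lower over all tested genes. Their median on the log2 scale was -0.10. DESeq2 called 2 higher and 20 lower, beside 14.0% and 15.8% of the genes it tested. GNL2, a GTPase of large-subunit assembly, had 153, 152 and 134 CPM in control cells and 119, 120.5 and 121 in knockdown cells (log2 fold change -0.28, adjusted p = 0.00322 from edgeR). DKC1, the pseudouridine synthase of the box H/ACA particle, had 277, 267 and 279.6 CPM against 227, 224 and 228 (log2 fold change -0.28, adjusted p = 0.000391 from edgeR). NHP2, which belongs to the same particle as DKC1, was the one that edgeR called higher, with 87.7, 93.5 and 98.2 CPM against 108, 119.6 and 128 (log2 fold change 0.35, adjusted p = 0.00385 from edgeR). DESeq2 also called WDR75 higher (log2 fold change 0.15, adjusted p = 0.0229), which passed in 9 of 19 alternative settings. In GNL2, DKC1 and NHP2 the groups did not overlap, and each was called in all 19 alternative settings. With library size alone, 11 genes of this list were lower and 5 higher, where 8.25% and 14.9% of all tested genes were called.

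Of 14 genes of RNA polymerase I and its factors, which transcribe the ribosomal RNA, 5 were lower and 0 higher by edgeR and by DESeq2 (35.7%), beside 12.4% and 15.8% of all tested genes called lower. They were POLR1E, POLR1F, TAF1D, RRN3 and POLR1C, of which RRN3 passed in 11 and POLR1C in 8 of 19 alternative settings. The count fell to 3 without control replicate 3, without knockdown replicate 2 and with library size alone. In these settings 9.02, 7.85 and 8.25% of all tested genes were lower, so the share over all genes fell as well. POLR1E, POLR1F and TAF1D had the largest changes, with log2 fold changes of -0.38, -0.32 and -0.26 (adjusted p = 0.000425, 0.00106 and 0.00205 from edgeR). Among 9 chaperones that escort ribosomal proteins, HEATR3, which carries RPL5 and RPL11 into the nucleus, and PDCD2, which escorts RPS2, were higher (log2 fold changes 0.21 and 0.19, adjusted p = 0.0297 and 0.0319 from edgeR) and 0 were lower by edgeR and by DESeq2. This is 22.2% of the list, beside 22.8% of all tested genes. The calls of HEATR3 and PDCD2 were lost in 4 and 6 of 19 alternative settings. Leaving out control replicate 1, control replicate 2, knockdown replicate 1 or knockdown replicate 2 left 0 genes of the list called. In these fits 17.6, 16.4, 18.0 and 13.9% of all tested genes were called. At an unadjusted p below 0.05 they held 2 or 3 genes of the list. Under that rule 30.4% of all tested genes passed without control replicate 2 and 28.6% without knockdown replicate 2, and the other shares were not computed. Of 17 other messages with a TOP motif, TPT1, EIF4B and HNRNPA1 were lower (17.6%) and 0 were higher by edgeR, beside 12.4% lower and 10.4% higher over all tested genes, and DESeq2 called 4 lower and 0 higher. TPT1 had 803, 862 and 901 CPM in control cells and 654, 699.7 and 752 in knockdown cells (log2 fold change -0.29, adjusted p = 0.00487 from edgeR), and EIF4B and HNRNPA1 had log2 fold changes of -0.22 and -0.08. The call of HNRNPA1 was lost in 13 of 19 alternative settings, and library size alone gave 2 lower and 2 higher genes in this list, where 8.25% and 14.9% of all tested genes were called.

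Of 13 regulators of ribosomal protein messages, 8 were lower and 0 were higher by edgeR (61.5%), beside 12.4% lower and 10.4% higher over all tested genes. DESeq2 called 8 lower and 1 higher, beside 15.8% and 14.0% of the genes it tested. The genes called lower by edgeR were the transcription factors MYC, GABPA, YY1 and SP1, the RNA-binding proteins LARP1 and LARP4, the kinase gene RPS6KB1 and the translation repressor gene EIF4EBP2. MYC had 281, 299 and 293 CPM in control cells and 255, 262 and 273 in knockdown cells, without overlap (log2 fold change -0.15, standard error 0.038, adjusted p = 0.0227 from edgeR), and its call was lost in 7 of 19 alternative settings. GABPA, RPS6KB1 and LARP4 had log2 fold changes of -0.26, -0.21 and -0.21 (adjusted p = 0.00272, 0.00189 and 0.00221 from edgeR), and these calls were lost in both settings with a GC trend removed. EIF4EBP2 passed in 10 of 19 settings. The count of lower genes in the list fell from 8 to 4 with the GC trend removed, where 10.1% of all tested genes were lower. MTOR itself had a log2 fold change of 0.13 and did not pass in edgeR (adjusted p = 0.0600), while it was the gene that DESeq2 called higher (adjusted p = 0.011). The list holds both activators and repressors of these messages.

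The 78 mitochondrial ribosomal protein genes, the family most like the members in function, held 10 genes that were higher and 3 that were lower by edgeR (12.8% and 3.85%, median log2 fold change 0.04), against 1 and 8 (1.2% and 9.64%) and a median of -0.07 for the cytosolic family. Over all tested genes these shares were 10.4% and 12.4%. With library size alone the mitochondrial list held 21 higher and 2 lower genes, where 14.9% and 8.25% of all tested genes were called. Without single samples it held 5 to 12 higher and 2 to 4 lower genes, where 6.01 to 7.79% of all tested genes were higher and 7.85 to 10.2% lower. The difference between the families was not tested. The 174 tested pseudogene rows of cytosolic ribosomal protein genes had 0 higher and 2 lower by edgeR, with 12 at an unadjusted p below 0.05, and 1 higher and 2 lower by DESeq2. Over all tested genes edgeR called 22.8%, and 34.6% had an unadjusted p below 0.05, while DESeq2 called 29.8% of the genes it tested.

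**Figure D5:**
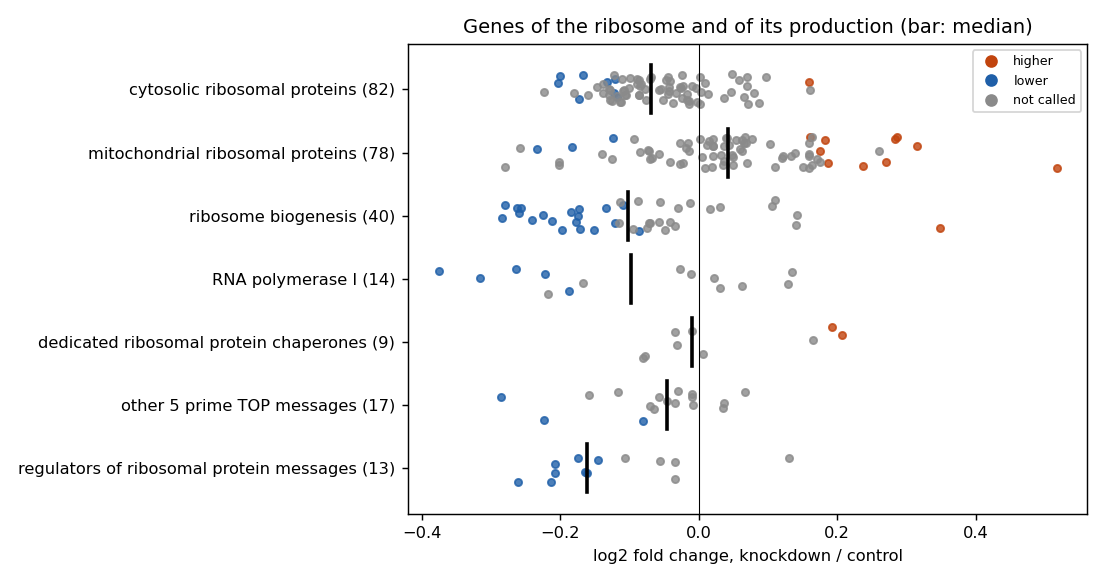
Log2 fold change (x axis, knockdown over control) of each tested gene in 7 lists, with the number of genes drawn in parentheses, colours for genes called higher or lower by edgeR and a black bar for the median. RPL3L is not drawn. The median lies below 0 for the cytosolic ribosomal proteins, the biogenesis genes, RNA polymerase I, the other TOP messages and the regulators, and above 0 for the mitochondrial ribosomal proteins.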

How the data were processed

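RNA-seq of 3 control and 3 ZNF706 knockdown samples of LM3 cells was analysed. The authors mapped reads with HISAT2, and their processing notes name cutadapt 1.9, FastQC and GRCh38. The deposited counts are whole reads per gene without normalization, and the deposited FPKM values also correct for depth and for the length of each gene. The counting program, strand setting and annotation release are not given in the sources used here, so overlapping genes and near copies are uncertain. No per-sample column was left unused.

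After filterByExpr and TMM scaling, glmQLFit and glmQLFTest of edgeR 4.0.16 (R 4.3.3) compared the groups, and p-values were adjusted over 18390 genes (Benjamini-Hochberg). The standard error of a log2 fold change was its size over the root of F, and 95% intervals use a t multiplier of 2.24. Alternatives used DESeq2 1.42.0 and limma 3.58.1. Lengths and GC content were those of GENCODE release 29. 3 list genes carried older symbols and were matched by gene ID. Not every gene of the family is reported here.

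Members and lists were chosen with earlier results of these data known. Named with values were ZNF706, MYC, up to 5 called members in each direction by size, the 3 highest and 3 lowest by FPKM, the 3 smallest p in each subunit, the copies and their parents, the 5S and stalk genes, and up to 3 called genes a list. Other genes were named after their values were seen.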

Additional observations from a re-analysis of the deposited data

How the results depend on the processing

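Both the number of called members and the balance of their directions depended on the settings. Against 8 lower and 1 higher (22.8% of all tested genes called), DESeq2 called 16 and 3 (29.8% of all genes), library size alone 1 and 5 (23.2%), limma on log2(FPKM + 0.1) for genes of mean FPKM at least 1 called 0 and 3 (33.5%), and no low-count filter 0 and 0 (9.55%). A mean count of at least 50 gave 10 lower and 2 higher (31.5%), a length trend removed 12 and 1 (22.2%), the study's thresholds 0 and 0 (15.5%), and a GC trend removed, chosen after seeing the data, 3 and 1 (20.7%). Leaving out each sample in turn gave 0 to 22 lower, 0 to 3 higher (13.9 to 18.0% of all genes called) and a median log2 fold change between -0.123 and -0.0138, against -0.0681 with all samples. The median stayed negative in every setting run. Library size alone moved the median of all genes to 0.0631. Over all tested genes the replicate numbers did not pair the samples (correlations of same-numbered deviations 0.0344, -0.0363 and -0.0156, and control replicate 2 correlated best with knockdown replicate 3). For the members, the median deviation rose with the replicate number in both groups. It was -0.0449, 0.05473 and 0.07902 in control cells and -0.1325, -0.02907 and 0.07208 in knockdown cells. Whether the numbers mark pairs for the members was not tested, and the labels do not say. With the number as a replicate block the counts were 28 lower and 2 higher (23.7% of all genes called), with a length trend also removed 29 lower and 1 higher (21.6%), and with the GC trend (chosen after seeing the data) 19 lower and 2 higher (21.0%). Biogenesis genes called lower went from 19 to 11 with library size alone and 12 with limma on FPKM, and to 13 to 16 without single samples, and regulators from 8 to 4 with the GC trend and 5 with the GC trend and block. The difference in summed share, -0.0505 percentage points, was -0.199 to 0.0967 without single samples and above 0 without control replicate 3 (0.00272) or knockdown replicate 1 (0.0967). The causes were not tested.

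Signs of uncalled named genes turned as follows (log2 fold changes). RPLP2 was 0.002477 with DESeq2, 0.05129 with library size alone, 0.002179 with a mean count of at least 50 and 0.04633 with limma on FPKM. Library size alone also gave RPS27L 0.01703, RPLP1 0.02816, RPL12 0.01017 and RPL36AL 0.04059. Limma on FPKM gave RPS27L 0.01029, RPLP1 0.02567, RPL12 0.001516 and RPL36AL 0.03461. RPS27L was 0.03063 with the length trend removed, 0.02704 with the block too, 0.03094 with the GC trend removed and 0.02814 with GC trend and block. The GC trend and then the GC trend with block gave RPL5 0.02805 and 0.02903, RPL36AL 0.0659 and 0.06499, and RPL10 -0.002302 and -0.002701. Without single samples the ranges were -0.01541 to 0.1226 for RPS12, -0.07931 to 0.1679 for RPS29, -1.179 to 0.01646 for RPL3L, -0.109 to 0.03302 for RPLP1, -0.03548 to 0.02752 for RPLP2, -0.1074 to 0.0248 for RPL12, -0.1958 to 0.01388 for RPL22L1, -0.04653 to 0.01319 for RPL36AL and -0.002401 to 0.04344 for RPL10. Depth limits RPL3L and RPL10L.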
